A study of Mus musculus with 5 samples.

Results

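Chemokine receptors of leukocytes that enter tissue from blood were examined in the tumor-bearing brain hemisphere. The group was set as a list of 9 mouse gene symbols (Ccr1, Ccr2, Ccr6, Ccr7, Cxcr3, Cxcr4, Cxcr6, Ackr3 and Ccrl2), and all 9 were found among the 55573 genes counted. Bulk RNA sequencing covered 3 vehicle libraries and 2 UMBO libraries, each from a different mouse. UMBO is the opening of the blood-brain barrier by low-intensity pulsed ultrasound with circulating microbubbles. All mice were C57BL/6 females, inoculated at an age of 7 to 8 weeks in the right caudate nucleus-putamen with GL261, a mouse glioma line carrying a luciferase/mKate2 vector. Vehicle mice received inVivoPure pH 6.5 Dilution Buffer. There were treatment sessions on days 21 and 24, and the right hemisphere was taken 24 h after the last one. GL261 is 1 cell line, and each library mixes tumor, brain, vessel, blood and immune RNA.

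Chemokine receptors are membrane proteins that steer migrating cells along gradients of secreted chemokines. Most of them signal through G proteins, while atypical receptors such as Ackr3, and Ccrl2, which resembles them, bind ligand without that signal. In brain tumors Ccr2 is best known for drawing monocytes from blood, and Cxcr3 and Cxcr6 for activated T cells. Cxcr4 and Ackr3, which share the ligand Cxcl12, are also made by endothelial cells, neural cells and glioma cells, so the 9 genes are not private to infiltrating leukocytes.

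Libraries held between 59736771 and 86164159 counts. UMBO replicate 2 stood apart from the other libraries, at 133.7 on the largest component of variation (78.7% of the variance) against negative values in 3 libraries and a smaller positive value in vehicle replicate 2. Ptprc, which encodes the pan-leukocyte protein CD45, was at 8.33, 16.5 and 15.2 normalized CPM (read counts scaled to a common library size and composition) in the 3 vehicle libraries (replicates 1 to 3) and at 16.4 and 30.9 in UMBO replicates 1 and 2. The 6 neuron markers summed to 4496 to 7337 with vehicle against 4682 and 2385 in UMBO replicates 1 and 2. In 4 of the 6 both UMBO values lay below all vehicle values, an order that 11.4% of all genes tested had. For 5 astrocyte markers the sums were 2708 to 4101 against 3687 and 1431, and for 5 oligodendrocyte markers 4707 to 4829 against 5056 and 4340. The part of tissue composition in the receptor values was not tested. Ly6g, the defining neutrophil marker, had 0 to 3 reads in a library, while all 6 neutrophil markers, mostly Csf3r, summed to 9.57 to 16.5 normalized CPM with vehicle against 21.9 and 29.2 with UMBO. Only Csf3r had both UMBO values above all vehicle values, at 9.04, 14.8 and 12.9 with vehicle and 21.1 and 24.1 with UMBO. Each of the other neutrophil markers lay inside the vehicle range in UMBO replicate 1. In such bulk RNA, a change in the number of cells of a type and a change in RNA per cell cannot be told apart. Among 23592 genes tested by edgeR quasi-likelihood, 0 had an adjusted p under 0.05. The DESeq2 Wald test, run on 40435 genes without a filter on low counts, called 40 (0.0668% of those genes higher and 0.0322% lower). DESeq2 made too many false calls on simulated data. None of the 9 receptors was among those 40.

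All 9 receptors passed the filter on low counts. Of these, 8 had a positive log2 fold change with UMBO, where 50.9% of all genes tested did, and the median was 0.83 against 0.01 over all genes. At an unadjusted p under 0.05 in the quasi-likelihood test of edgeR, Ccr1 and Cxcr4 were higher and no receptor was lower. The same threshold called 5.3% of all genes higher and 2.06% lower. In Cxcr4 and Ackr3 both UMBO libraries exceeded all 3 vehicle libraries, an order that 11.5% of all genes tested had. UMBO replicate 2 was the highest library for 7 of the 9 receptors, and vehicle replicate 1 was the lowest for 6. Without UMBO replicate 2 the median log2 fold change of the receptors was -0.30, with 4 receptors higher and 5 lower.

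The share of all genes called changed with the setting too. At an unadjusted p under 0.05 and in the direction of higher, no filter on low counts called 4 receptors and 7.31% of all genes, and DESeq2 3 receptors and 4.87%. Both shares are of 40435 genes, which include those that the filter removes, so they are not on the footing of the filtered 5.3%. Without UMBO replicate 1 the fit called 5 receptors and 21.4% of genes (adjusted, 4 receptors and 10.1%, with 8.21% of genes lower), and without vehicle replicate 2 it called 2 receptors and 9.36%. No receptor was called without vehicle replicate 1, vehicle replicate 3 or UMBO replicate 2, where 0.838%, 0.945% and 1.15% of genes were.

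**Figure D1:**
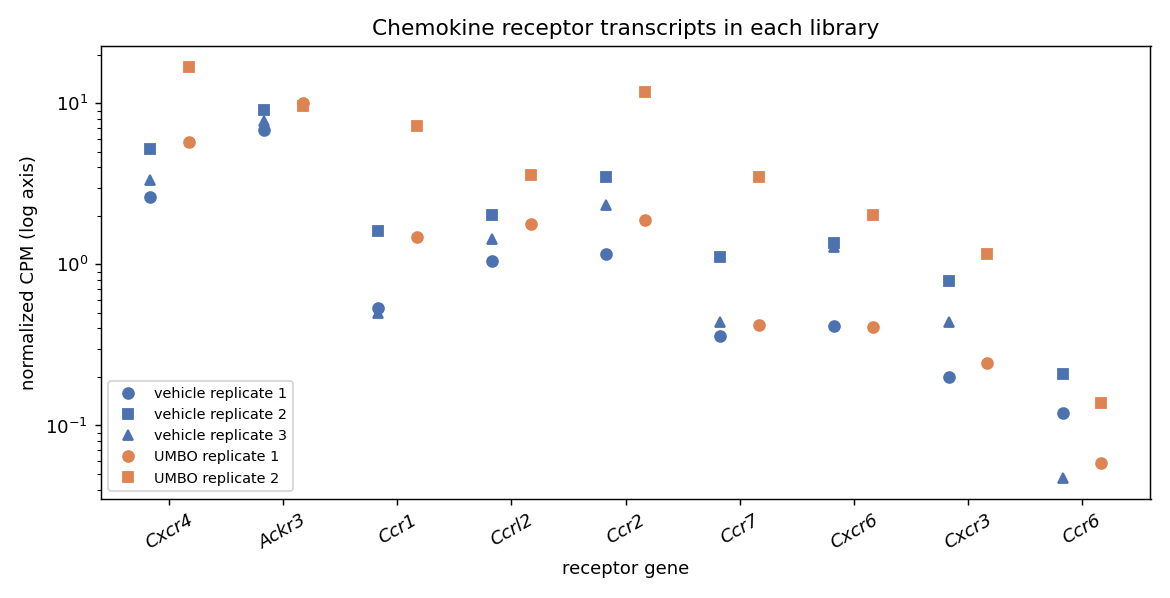
Normalized CPM (log axis) of the 9 receptor genes in each library, with vehicle in blue and UMBO in orange and 1 marker shape per replicate number. UMBO replicate 2 is highest for 7 receptors, and UMBO replicate 1 lies above every vehicle library in Cxcr4 and Ackr3. In Cxcr6, UMBO replicate 1 is level with vehicle replicate 1, the lowest vehicle library.

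Cxcr4 and Ackr3, the receptors of Cxcl12, were the only members in which both UMBO libraries exceeded the vehicle libraries, so the sequence before each start site is shown. Both genes are on chromosome 1 of GRCm38, Cxcr4 at 128588199 to 128592293 on the reverse strand and Ackr3 at 90203980 to 90216751 on the forward strand. The 250 bases before the start in RefSeq (GRCm38.p6) are chr1:128592300-128592549, reverse strand, for Cxcr4 and chr1:90203730-90203979, forward strand, for Ackr3, written 5′ to 3′ with CpG dinucleotides in capitals.
Cxcr4: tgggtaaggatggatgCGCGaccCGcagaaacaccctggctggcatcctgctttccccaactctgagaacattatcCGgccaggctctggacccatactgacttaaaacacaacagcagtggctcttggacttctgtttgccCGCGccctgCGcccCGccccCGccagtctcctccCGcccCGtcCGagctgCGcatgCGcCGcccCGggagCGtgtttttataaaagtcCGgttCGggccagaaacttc
Ackr3: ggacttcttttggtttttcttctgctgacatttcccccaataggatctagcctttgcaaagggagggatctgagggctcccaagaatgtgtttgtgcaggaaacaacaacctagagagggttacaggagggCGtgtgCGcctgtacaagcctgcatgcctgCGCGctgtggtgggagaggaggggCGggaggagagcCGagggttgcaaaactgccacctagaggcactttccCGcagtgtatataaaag
The Cxcr4 window holds 19 CpG and the Ackr3 window 7, where the median of 32851 windows is 6. Each contains the TATA box letters TATAAA, found on either strand in 12.4% of all windows, and the GC box letters GGGCGG, found in 32.7%. The letters CCAAT are in the Ackr3 window and in 33.8% of all. Neither window holds ACGTG, TTCNNNGAA, GAGGAAGT or the interferon response element, which are in 16.6%, 7.02%, 2.44% and 2.98% of windows. A match to these letters describes the window and does not show a site in use.

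Cxcr4, which retains and recruits leukocytes and progenitors, was at 2.63, 5.19 and 3.33 normalized CPM in vehicle replicates 1 to 3. The UMBO values were 5.79 (replicate 1) and 16.9 (replicate 2). Both UMBO libraries were therefore above the vehicle libraries, but UMBO replicate 1 was close to vehicle replicate 2 and UMBO replicate 2 was far above all others. The log2 fold change was 1.61 (standard error 0.518, 95% interval 0.34 to 2.88), with an unadjusted p of 0.021 and an adjusted p of 0.497 in the quasi-likelihood test of edgeR. Without UMBO replicate 2 it was 0.64 (edgeR unadjusted p = 0.175). Without vehicle replicate 1 or vehicle replicate 3 it was 1.42 and 1.54, with unadjusted p of 0.069 and 0.0681 in edgeR.

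Ackr3, a scavenger that removes Cxcl12 from the surroundings of cells, varied least of the 9 receptors. Its normalized CPM was 6.84, 9.11 and 7.80 with vehicle, 10.0 and 9.60 with UMBO. It was the only receptor with its highest value in UMBO replicate 1, and the highest library exceeded the lowest 1.47-fold. The log2 fold change was 0.31 (standard error 0.225, 95% interval -0.24 to 0.86), with an adjusted p of 0.516 in edgeR. It lay between 0.22 and 0.45 with each library left out in turn. Of 6 endothelial markers, 5 also had both UMBO values above all vehicle values, an order that 11.5% of all genes tested had. Their summed level, over all 6, was 112 to 158 normalized CPM with vehicle against 194 and 224 with UMBO. For the 10 proliferation markers, 8 of them in that order, the sums were 37.8 to 117 with vehicle against 123 and 512 with UMBO. The part of these cells in the values of Cxcr4 and Ackr3 was not tested.

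The receptors of monocytes and macrophages were highest in UMBO replicate 2 and not distinct from vehicle in UMBO replicate 1. Ccr1, Ccr2 and Cxcr6 lie within 307083 bases of chromosome 9 (123806475 to 124113557), together with the receptor genes Ccr3, Ccr1l1 and Xcr1. The windows before the RefSeq starts (GRCm38.p6) of Ccr1 (chr9:123968693-123968942, reverse strand) and Ccr2 (chr9:124101933-124102182, forward strand) are shown as the counterpart of the previous pair, with CpG in capitals. The GENCODE model of Ccr2 starts earlier, at 124101950, so most of its window lies inside that gene model.
Ccr1: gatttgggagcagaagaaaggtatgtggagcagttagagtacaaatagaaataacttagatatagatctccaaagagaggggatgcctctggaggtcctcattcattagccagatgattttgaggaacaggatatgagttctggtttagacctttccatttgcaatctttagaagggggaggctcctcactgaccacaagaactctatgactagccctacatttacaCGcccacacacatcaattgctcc
Ccr2: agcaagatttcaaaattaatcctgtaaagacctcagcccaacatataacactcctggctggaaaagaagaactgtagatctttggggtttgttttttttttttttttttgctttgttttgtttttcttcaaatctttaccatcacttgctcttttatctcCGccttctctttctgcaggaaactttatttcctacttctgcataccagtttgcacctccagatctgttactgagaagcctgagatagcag
Each contains 1 CpG, and neither contains any of the 7 motifs searched. For 8 of the 9 receptors a window was at hand, with 1 to 7 CpG in each window other than that of Cxcr4.

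Ccr1, a receptor for Ccl3, Ccl5 and related chemokines on myeloid cells, was at 0.535, 1.62 and 0.496 normalized CPM in vehicle replicates 1 to 3. The UMBO values were 1.49 (replicate 1) and 7.20 (replicate 2). UMBO replicate 1 fell below vehicle replicate 2, so the groups overlapped. Its log2 fold change of 2.30 was the largest of the 9 receptors in this fit (standard error 0.816, 95% interval 0.30 to 4.30), with an unadjusted p of 0.0305 and an adjusted p of 0.497 in the quasi-likelihood test of edgeR. Without UMBO replicate 2 it was 0.76 (edgeR unadjusted p = 0.309), and without UMBO replicate 1 it was 3.01. It was 3.11 without vehicle replicate 2, while without vehicle replicate 1 or 3 the edgeR unadjusted p was 0.0931 and 0.0922.

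Ccr2, the receptor of inflammatory monocytes for Ccl2, Ccl7 and Ccl12, was at 1.16, 3.50 and 2.35 normalized CPM with vehicle. In UMBO replicate 1 it was at 1.89, inside the vehicle range, and in UMBO replicate 2 at 11.7. The log2 fold change was 1.54 (standard error 0.796, 95% interval -0.41 to 3.49), with an adjusted p of 0.497 in edgeR. It turned to -0.30 without UMBO replicate 2.

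Ccrl2, which binds the chemoattractant chemerin (gene Rarres2) without signaling, was at 1.06, 2.03 and 1.44 normalized CPM with vehicle and at 1.79 and 3.57 with UMBO. Again UMBO replicate 1 was below vehicle replicate 2, and the log2 fold change was 0.83 (standard error 0.447, 95% interval -0.27 to 1.92). Without UMBO replicate 2 it was 0.25. Its adjusted p in edgeR was 0.497. The monocyte markers Ly6c2 and Plac8 summed to 1.27, 8.02 and 2.20 normalized CPM with vehicle and to 3.75 and 51.0 with UMBO, the same order of libraries as Ccr1 apart from the exchange of vehicle replicates 1 and 3. For the whole list of 6 monocyte markers, of which 1 had both UMBO values above all vehicle values, the sums were 41.9 to 100.3 with vehicle against 102 and 391 with UMBO. The part of monocyte RNA in the receptor values was not tested.

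The receptors of lymphocytes and migrating dendritic cells divided the UMBO libraries. Ccr7, which guides naive T cells and mature dendritic cells to lymph nodes, was at 0.361, 1.11 and 0.437 normalized CPM with vehicle and at 0.421 and 3.46 with UMBO. UMBO replicate 1 lay among the vehicle libraries, below replicates 2 and 3. The log2 fold change was 1.61 (standard error 0.915, 95% interval -0.63 to 3.85), and -0.59 without UMBO replicate 2. Cxcr3, the receptor of activated T and NK cells for Cxcl9, Cxcl10 and Cxcl11, was at 0.201, 0.786 and 0.437 normalized CPM with vehicle and at 0.246 and 1.16 with UMBO. The fitted log2 fold change was 0.56 (standard error 0.808, 95% interval -1.42 to 2.54) and turned to -0.94 without UMBO replicate 2.

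Cxcr6, found on activated and tissue-resident T cells, was the only receptor whose lowest value was in a UMBO library, by a narrow margin. It was at 0.414, 1.35 and 1.28 normalized CPM with vehicle, with 0.409 and 2.01 in UMBO replicates 1 and 2. UMBO replicate 1 was thus level with vehicle replicate 1 (35 and 31 reads), and UMBO replicate 2 was highest. The log2 fold change was 0.25 (standard error 0.791, 95% interval -1.68 to 2.19). It was -1.31 without UMBO replicate 2 and -0.12 without vehicle replicate 1. Cxcr6 lies inside Fyco1 on the opposite strand and shares 0 exon bases with it. Fyco1 was at 23.0 to 82.7 CPM, lowest in UMBO replicate 2, and whether the counting used strand is not given in the sources used here.

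Ccr6, the Ccl20 receptor of B cells and some T and dendritic cells, had only 9, 14 and 4 reads with vehicle and 5 and 9 with UMBO. No difference was detected on these reads (log2 fold change -0.35, 95% interval -2.23 to 1.52). The direction turned to 0.14 without UMBO replicate 1. Adjusted p in edgeR was 0.497 for Ccr7, 0.712 for Cxcr3, 0.873 for Cxcr6 and 0.81 for Ccr6. The T cell receptor complex genes Cd3d, Cd3e and Cd3g summed to 1.39, 7.16 and 3.68 normalized CPM with vehicle and to 2.09 and 14.3 with UMBO, the same order of libraries as Cxcr3. Over the 8 T cell markers the sums were 18.4 to 32.4 with vehicle against 11.4 and 46.5 with UMBO, and in 0 of the 8 did both UMBO libraries lie above or below every vehicle library. Cd4 alone was at 14.6, 14.0 and 7.31 with vehicle and 4.56 and 8.30 with UMBO, and the other 7 markers summed to 5.27, 18.4 and 11.1 against 6.81 and 38.2, with UMBO replicate 1 inside the vehicle range. The part of T cell RNA in the receptor values was not tested.

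**Figure D2:**
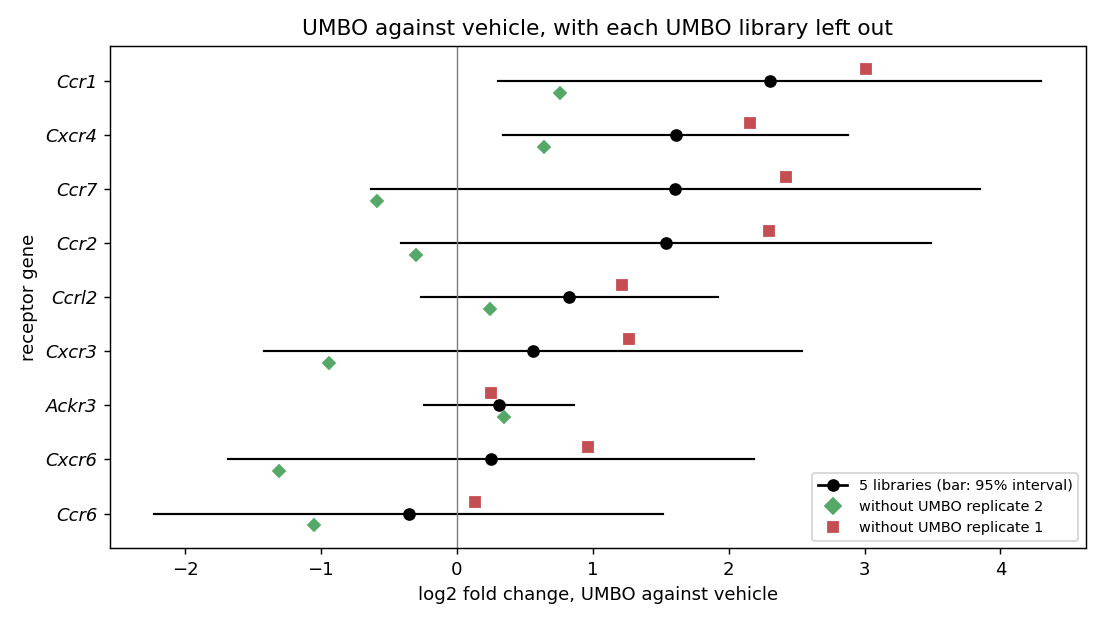
Log2 fold change of each receptor, UMBO against vehicle, from edgeR with all 5 libraries (black, bar 95% interval), without UMBO replicate 2 (green) and without UMBO replicate 1 (red). Only the intervals of Ccr1 and Cxcr4 lie above 0, and without UMBO replicate 2 the values of Ccr2, Ccr7, Cxcr3, Cxcr6 and Ccr6 are negative.

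Receptor abundance was compared per length, as RPKM over the exon length of each gene. Cxcr4 had the highest mean over the 5 libraries, 3.91, followed by Ackr3 at 2.61, Ccr1 at 0.848, Ccrl2 at 0.781, Ccr2 at 0.640, Ccr7 at 0.618, Cxcr6 at 0.582, Cxcr3 at 0.338 and Ccr6 at 0.0496. This order of means was not that of each library. Cxcr4 exceeded Ackr3 in 3 of 5 libraries, Ccr1 exceeded Ccrl2 in 1, and Ccr2 exceeded Ccr7 and Ccr7 exceeded Cxcr6 in 2 each, whereas Ackr3 exceeded Ccr1 and Cxcr6 exceeded Cxcr3 in all 5. Ccr6 was last in every library, and it was the only one whose range over the libraries did not overlap that of its neighbor. Together Cxcr4 and Ackr3 made up 57.2% to 74.8% of the summed level of the 9 receptors. The share of Cxcr4 was 30.1%, 31.0% and 28.8% with vehicle and 38.6% and 43.8% with UMBO, higher in both UMBO libraries. Ackr3 held 42.3%, 29.4% and 36.4% with vehicle, 36.2% in UMBO replicate 1 and 13.4% in UMBO replicate 2.

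Relative to Ptprc, 4 of the 9 receptors were higher with UMBO (Ccr1, Ccr2, Ccr7 and Cxcr4) and 5 were lower. Cxcr4 was the only one with both UMBO values above all vehicle values on this scale. It had 31.6, 31.5 and 21.9 reads per 100 Ptprc reads with vehicle and 35.4 and 54.7 with UMBO. Of all genes tested, 1.48% had that order relative to Ptprc. Ptprc itself had a log2 fold change of 0.83 with UMBO, which lowers such ratios. The 1.48% is therefore not a share among leukocyte genes. Ccrl2 hardly differed between libraries once scaled in this way, at 12.7, 12.3 and 9.49 with vehicle and 10.9 and 11.5 with UMBO. Ccr1 was at 6.42, 9.82 and 3.27 reads per 100 Ptprc reads with vehicle and at 9.07 and 23.3 with UMBO. Cxcr6 was at 4.98, 8.20 and 8.40 with vehicle and at 2.50 and 6.51 with UMBO. Ptprc is also made by microglia, so the ratio is not a share of infiltrating cells, and no test was made on it. Without UMBO replicate 2 the number of receptors higher relative to Ptprc was 2.

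**Figure D3:**
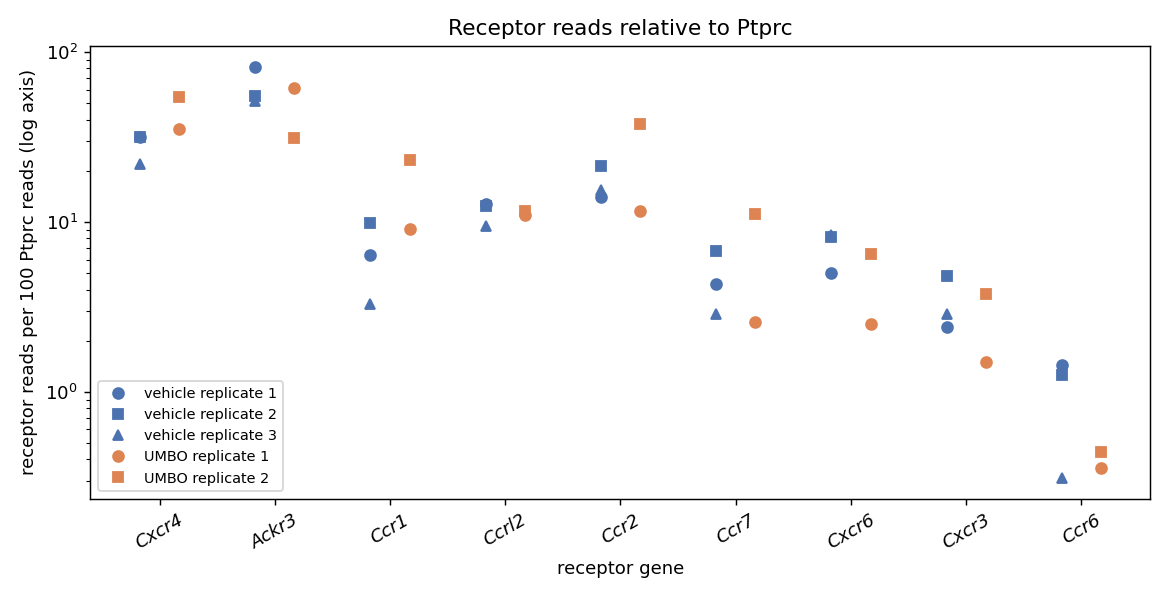
Receptor reads per 100 reads of Ptprc (log axis) in each library, vehicle in blue and UMBO in orange. Cxcr4 is the only receptor with both UMBO libraries above the vehicle libraries, and the 5 libraries nearly coincide for Ccrl2.

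The ligands of the receptors were read from the same libraries. Of 16 ligand genes, 13 passed the filter. A positive log2 fold change, found in 50.9% of all genes tested, was seen in 12 of them (median 1.72). Without UMBO replicate 2 this fell to 8 of 13 with a median of 0.14, and without vehicle replicate 2 the median was 2.91. At an unadjusted p under 0.05 in the quasi-likelihood test of edgeR, which called 5.3% of all genes higher and 2.06% lower, 4 ligands were higher and 0 lower. At an adjusted p under 0.05 there were 0, as against 2 (Ccl3 and Ccl9) with DESeq2, which called 0.0668% of its 40435 genes higher. The 4 with an unadjusted p under 0.05 in edgeR were Ccl9, Ccl3 and Ccl6, which bind Ccr1, and Ccl12, a Ccr2 ligand. Ccl9 was at 1.42, 3.84 and 2.46 normalized CPM with vehicle and at 8.36 and 20.5 with UMBO, a log2 fold change of 2.49. Ccl3 was at 0.348, 1.14 and 0.378 with vehicle and at 2.12 and 7.64 with UMBO, and Ccl6 at 1.26, 4.70 and 2.64 against 7.99 and 20.7. In these 3 genes, and in no other ligand that passed the filter, both UMBO libraries exceeded all 3 vehicle libraries, an order that 11.5% of all genes tested had. UMBO replicate 1 thus had more RNA of these 3 Ccr1 ligands than any vehicle library, while its Ccr1 level was below that of vehicle replicate 2.

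The other ligands that passed the filter overlapped between the groups. Ccl12, the most abundant of the 3 Ccr2 ligands, was at 1.19, 6.05 and 1.90 normalized CPM with vehicle and at 5.22 and 32.8 with UMBO. Cxcl10, the main Cxcr3 ligand by reads, was at 8.89, 69.4 and 12.2 with vehicle and at 27.6 and 158.7 with UMBO. Cxcl16, the ligand of Cxcr6, was at 3.62, 18.0 and 6.21 against 10.2 and 50.8, so that vehicle replicate 2 exceeded UMBO replicate 1 in each of these 3 genes. Ccl5, the Ccr1 ligand with the highest mean over the 5 libraries though below Ccl9 and Ccl6 in both UMBO libraries, was at 1.58, 11.2 and 4.24 with vehicle and at 2.42 and 19.4 with UMBO. Rarres2, which encodes chemerin, was at 7.83, 15.3 and 14.7 against 15.1 and 19.5. Cxcl12 did not follow its receptors, at 46.1, 44.0 and 58.7 normalized CPM with vehicle, 54.5 in UMBO replicate 1 and 33.4, the lowest value, in UMBO replicate 2. It was the only ligand tested with a negative log2 fold change, -0.17 (standard error 0.265), with an adjusted p of 0.726 in edgeR. The ligand of Ccr6, Ccl20, had 0 to 2 reads in a library. Ccl19 and Ccl21a, the 2 ligands of Ccr7 in the list, had 0 to 6 and 0 to 1. Whether ligand genes share sequence with other genes, which can lower their counts, was not checked.

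**Figure D4:**
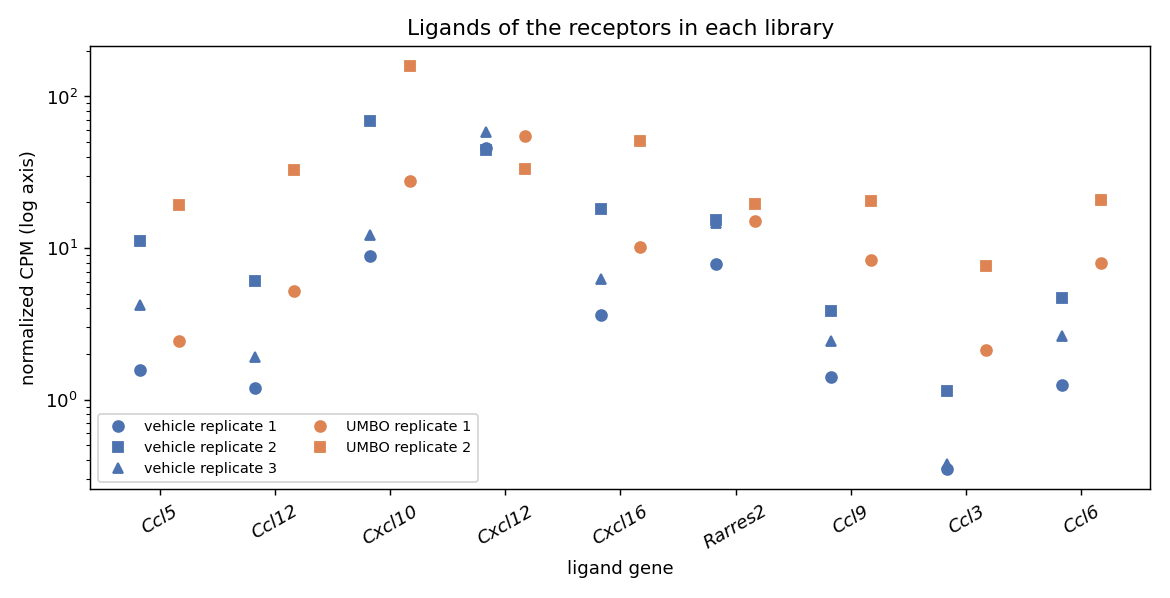
Normalized CPM (log axis) of 9 ligand genes in each library, vehicle in blue and UMBO in orange. Ccl9, Ccl3 and Ccl6 are above every vehicle library in both UMBO libraries, Cxcl12 is lowest in UMBO replicate 2, and vehicle replicate 2 exceeds UMBO replicate 1 for Ccl5, Ccl12, Cxcl10, Cxcl16 and, narrowly, Rarres2.

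Of 15 other chemokine receptor genes, 11 passed the filter. At an unadjusted p under 0.05 in the quasi-likelihood test of edgeR, 3 of them were higher and 0 lower, where 5.3% of all genes were higher and 2.06% lower. Cx3cr1, the fractalkine receptor that marks microglia, was at 60.2, 75.4 and 67.2 normalized CPM with vehicle and at 99.6 and 124 with UMBO, a log2 fold change of 0.73 (standard error 0.192). Cxcr5, the Cxcl13 receptor of B cells and follicular helper T cells, was also among the 3 higher ones, with 5 to 9 reads with vehicle and 15 and 17 with UMBO. The 7 microglia markers summed to 273 to 411 normalized CPM with vehicle against 530 and 645 with UMBO, 5 of them with no overlap of the groups, and the part of microglia in these values was not tested. In Cx3cr1 and Cxcr5 both UMBO libraries exceeded all 3 vehicle libraries, an order that 11.5% of all genes tested had, and neither had an adjusted p under 0.05. Ccr3 had a log2 fold change of 1.05 on 4 to 25 reads. Cxcr2, the neutrophil receptor, had 1, 6 and 1 reads with vehicle and 7 and 29 with UMBO and did not pass the filter.

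Likeness over the 5 libraries was measured as the root mean square difference between log2 values centered on each gene's mean, among 120 genes from the receptor, ligand and marker lists. The genes closest to Cxcr4 were Cd79b (0.158) and Ccl19 (0.169), and the closest to Ackr3 were the microglial gene Siglech (0.031) and the astrocyte gene Aldh1l1 (0.047). For Ccr1 they were Cxcr2 (0.06) and Ccnb1 (0.187), while Ccr7 (0.292) was among the 2 closest to Ccr2 and Ptprc (0.149) among the 2 closest to Ccrl2. Among the lymphocyte receptors the closest were the NK cell gene Klrk1 (0.197) and the dendritic cell gene Ccl22 (0.203) for Ccr7, Cd3e (0.222) and Clec9a (0.245) for Cxcr3, and Cd8b1 (0.29) and Cxcr3 (0.292) for Cxcr6. Ccr6 had Ppp1r1b (0.259) and Cd4 (0.428) as its nearest genes. Ccl19 and Cxcr2 had few reads, where the prior count narrows log2 differences, and all 120 genes were read from the same 5 libraries.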

How the data were processed

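Per the labels, libraries were made from right-hemisphere RNA with a SMARTER mRNA-Seq kit. The values deposited by the authors are raw counts per Ensembl gene, 1 table per library, from STAR v2.7.2a on GRCm38. The annotation release and the use of strand in counting are not given in the sources used here. Positions and exon lengths were taken from GENCODE M21 on the same build, and symbols from a gene name table that matched 55394 of the 55573 genes. Genes without a name took up to 0.101% of counts.

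Counts were scaled by TMM and filtered with filterByExpr (minimum count 10). The test was edgeR 4.0.16 (R 4.3.3) quasi-likelihood, with the group as the only term and Benjamini-Hochberg adjustment over 23592 genes at a threshold of 0.05. Log2 values used a prior count of 2. Precision is limited by the number of mice, not by depth, except for genes with few reads. All library pairs differed beyond sampling noise (chi-square at least 55.9 per gene). Scripts were tested on simulated data, where at the dispersion of these libraries edgeR kept false calls near its threshold and DESeq2 made far more of them than its threshold allows, so its calls here are weak evidence. The acceptance rule of this check was replaced after the first rule failed for DESeq2 on genes with few reads. Promoter windows came from RefSeq, which held 8 of the 9 receptors. No batch is given in the labels. The study's methods describe groups of equal size, and a further UMBO mouse was not analysed here.

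The receptors and gene lists were chosen with earlier results of these data known. All members were named. Of ligands and other receptors, those with the 4 smallest p were named, besides the most abundant ligand of each receptor, Cx3cr1 and Cxcr2. Some genes that the rule names are not reported here. Fyco1, and the receptors, ligands and markers given beyond this rule, were chosen after their values were seen. Alternatives were other scalings, no filter, DESeq2 1.42.0, a replicate block and each library left out.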

Additional observations from a re-analysis of the deposited data

How the results depend on the processing

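Under RLE size factors, library size only, no filter, DESeq2 and the replicate block, the log2 fold change of each receptor kept its direction (45 of 45 values). Scaling by library size alone shifted the all-gene median from 0.01 to 0.13 (log2). The number of receptors with an unadjusted p under 0.05 was 2, and 4 with no filter on low counts and 5 with the replicate block. The number of ligands was 4, against 9 with no filter, 7 with the DESeq2 Wald test and 12 with the block. Genes with an adjusted p under 0.05 numbered 0, against 40 with DESeq2 and 2337 with the block, where 3 receptors (Ccr1, Ccr2 and Cxcr4) were among them. The block fit left 1 degree of freedom to estimate the spread, and vehicle replicate 3 was the only library in its block. The cause of the larger number was not tested. Nothing in the labels ties equal replicate numbers to a litter or day. With 2 shared numbers, deviations correlated at 0.453 and 0.76 across genes, and the deviations of the 2 UMBO libraries are each other's negative by construction, and pairing is thus not shown. The block called 14.4% of all genes higher at an unadjusted p under 0.05.

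With 1 library left out in turn, the number of receptors with an unadjusted p under 0.05 ranged from 0 (without vehicle replicate 1, vehicle replicate 3 or UMBO replicate 2) to 5 (without UMBO replicate 1), ligands from 3 to 10, other chemokine receptors from 1 to 4 and all genes at an adjusted p under 0.05 from 0 to 4543 (without UMBO replicate 1, where the lone UMBO library is assumed to vary like vehicle). Receptors with all remaining UMBO values above all vehicle values numbered from 2 to 8 (without UMBO replicate 1, where 42.2% of all genes tested had that order), with 4 without vehicle replicate 2 (30.1% of genes), and receptors higher relative to Ptprc from 2 to 6. The median log2 fold change of the receptors ranged from -0.30 (without UMBO replicate 2) to 1.56 (without vehicle replicate 2, over 8 receptors). The ranges were -0.30 to 2.29 for Ccr2, -1.05 to 0.14 for Ccr6 (4 fits, since it did not pass the filter without vehicle replicate 2), -0.59 to 2.42 for Ccr7, -0.94 to 1.27 for Cxcr3 and -1.31 to 0.96 for Cxcr6, and those of Ccr1, Cxcr4, Ackr3 and Ccrl2 stayed above 0. The order of the receptors by level was the same with the longest transcript as length.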

Other observations

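Receptors were also set against marker genes of the cells that carry them, a choice made after the values were seen, with no test. Per 100 reads of the monocyte genes Ly6c2 and Plac8, Ccr2 had 91.6, 43.6 and 107 reads with vehicle and 50.5 and 22.9 with UMBO, in replicate order. Ccr1 had 42.1, 20.1 and 22.6 reads with vehicle and 39.6 and 14.1 with UMBO on the same scale. The order depended on the marker genes chosen, since per 100 reads of all 6 monocyte markers Ccr2 had 2.78, 3.49 and 3.54 reads with vehicle and 1.86 and 2.99 with UMBO, with UMBO replicate 1 lowest and UMBO replicate 2 inside the vehicle range. Per 100 reads of all 6, Ccr1 had 1.28, 1.61 and 0.748 with vehicle and 1.46 and 1.84 with UMBO, with UMBO replicate 2 highest. Ly6c2 has a close paralog, Ly6c1, that endothelial cells express.

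Per 100 reads of Cd3d, Cd3e and Cd3g, Cxcr6 had 29.8, 18.8 and 34.6 reads with vehicle and 19.6 and 14.1 with UMBO. Cxcr3 had 14.4, 11.0 and 11.9 with vehicle and 11.7 and 8.09 with UMBO. Ccr7 had 26.0, 15.5 and 11.9 against 20.1 and 24.2. Vehicle and UMBO libraries overlapped for all 3 receptors. Per 100 reads of the endothelial genes Cldn5, Pecam1 and Cdh5, Ackr3 had 15.7, 13.0 and 13.5 reads with vehicle and 11.1 and 7.70 with UMBO. Per 100 reads of all 6 endothelial markers Ackr3 had 6.13, 5.77 and 4.99 with vehicle and 5.18 and 4.29 with UMBO, and the groups overlapped. Cxcr4 had 6.05, 7.39 and 5.77 against 6.39 and 13.6 per 100 reads of the 3 genes.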
